A study of Mus musculus with 6 samples.

Results

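The pyruvate dehydrogenase kinases Pdk1, Pdk2, Pdk3 and Pdk4 and the pyruvate dehydrogenase phosphatases Pdp1 and Pdp2 were followed in mouse cardiomyocytes given an arm of the unfolded protein response. The 6 genes were taken by symbol from the deposited count table, which lists 23337 genes, and all 6 were among the 14587 genes that passed the filter on low counts. Wild-type mice were injected on day 1 after birth with an adeno-associated virus (AAV), and their heart muscle cells were collected at 4 weeks of age by Langendorff perfusion, sorted by flow cytometry and sequenced as polyA RNA. The 3 groups had 2 libraries each: AAV-XBP1S, which by its name carries the spliced, active form of XBP1, AAV-ATF6N, which by its name carries the active amino-terminal part of ATF6, and AAV-GFP, the control virus, which carries green fluorescent protein. The sample labels write the first and second as AAV-XBP1 and AAV-ATF6. They name no promoter for the viruses and do not say whether a library came from 1 mouse or from several, so p-values measure the spread between libraries, which may be technical.

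The pyruvate dehydrogenase complex of the mitochondrial matrix turns pyruvate into acetyl-CoA and so links glycolysis to the citric acid cycle. The kinases switch the complex off by phosphorylating its E1 alpha subunit, and the phosphatases switch it on again by removing the phosphate. In heart muscle this switch is known to set how much glucose is burned in place of fatty acids, and high kinase activity spares glucose. XBP1S and ATF6 are transcription factors of the endoplasmic reticulum stress response.

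Among the 6 genes, Pdk3 stood out: it was 4.62-fold higher in AAV-ATF6N cardiomyocytes than in AAV-GFP cardiomyocytes, the 1 call among the members in any comparison, and 3.03-fold higher in AAV-XBP1S cardiomyocytes, just short of the threshold. Pdk4 had its highest level in AAV-ATF6N libraries and its lowest in AAV-XBP1S libraries. Pdp2 was lower in both treated groups than in AAV-GFP libraries, without passing the test. Pdk1, Pdk2 and Pdp1 differed by less than the test could separate from the spread between replicates.

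The libraries held between 67702482 and 112049342 counts. The first AAV-GFP library stood apart: it was the deepest, its share of Rn45s (ribosomal precursor RNA) was 0.337% against 0.0319% to 0.13% in the other libraries, and its normalization factor was the lowest at 0.8784. All 8 cardiomyocyte marker genes were detected in every library, with summed levels of 81867 and 85861 CPM (counts scaled to a common library size) with AAV-XBP1S, 117176 and 116221 CPM with AAV-ATF6N, and 100013 and 92535 CPM with AAV-GFP. Markers of other cell types were present at lower summed levels. The 7 endothelial genes summed to 893 and 1245 CPM with AAV-XBP1S, 534 and 489 CPM with AAV-ATF6N, and 543 and 800 CPM with AAV-GFP, and the 6 fibroblast genes to 494 and 493 CPM, 367 and 360 CPM, and 293 and 286 CPM in the same order of groups. The 6 macrophage and leukocyte genes summed to 41.5 and 39.7 CPM, 38.4 and 40.2 CPM, and 25.5 and 27.8 CPM in that order, and the 6 smooth muscle and pericyte genes to 947 and 877 CPM, 991 and 975 CPM, and 852 and 779 CPM. Adipocyte markers lay at or near 0, and of the erythroid markers Hba-a1 and Hbb-b1 were listed at 0 while Alas2, which makes the first intermediate of heme, fell by 1.75 on the log2 scale in AAV-ATF6N (edgeR adjusted p = 0.047). In such bulk samples, fewer cells of a type and less RNA per cell cannot be told apart.

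Transcripts that differ by sex also differed between the groups. The Y-linked gene Eif2s3y had no count in either AAV-XBP1S library, where 3 counts would be 0.0322 and 0.0367 CPM, 44.3 and 43.2 CPM in AAV-ATF6N, and 16.6 and 13.7 CPM in AAV-GFP. Xist, the RNA of the inactive X chromosome, had 43.1 and 20.2 CPM with AAV-XBP1S, 0.197 and 0.0919 CPM with AAV-ATF6N, and 24.6 and 7.88 CPM with AAV-GFP. Both AAV-GFP libraries thus held Xist together with Y-linked RNA, as a mix of RNA from both sexes would, which the labels do not explain. The AAV-XBP1S libraries held Xist with Y-linked RNA at or near 0, and in AAV-ATF6N the reverse was seen. The sex makeup of the libraries therefore cannot be told apart from the virus given. This bears most directly on Pdk3, which lies on the X chromosome, and the values it goes with are given beside that gene.

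The mouse genes Xbp1 and Atf6 served as a check of the labels, although their counts do not tell viral RNA from the cells' own. Xbp1 had 160 and 166 CPM with AAV-XBP1S, 145 and 152 CPM with AAV-ATF6N and 98.0 and 115 CPM with AAV-GFP, a log2 difference of 0.61 for AAV-XBP1S with an adjusted p of 0.307 by edgeR (quasi-likelihood test, Benjamini-Hochberg adjusted over all tested genes), the test used throughout. Atf6 had 77.0 and 111 CPM with AAV-XBP1S, 162 and 158 CPM with AAV-ATF6N and 44.9 and 70.6 CPM with AAV-GFP, a log2 difference of 1.47 for AAV-ATF6N with an adjusted p of 0.126 in edgeR's test. Neither passed the threshold of 0.05, and both were highest in the libraries labelled for them, Xbp1 only narrowly. In AAV-ATF6N against AAV-XBP1S, Xbp1 differed by -0.14 on the log2 scale, with an adjusted p of 0.802 in edgeR's test. Xbp1 therefore hardly separated the treated groups. In the authors' deposited comparisons with AAV-GFP, the adjusted p was 0.829 for Xbp1 in AAV-XBP1S and 0.000799 for Atf6 in AAV-ATF6N.

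Because both delivered factors act by binding DNA, the stretches just before the annotated starts of the 3 members with the largest differences were taken from RefSeq (mouse build GRCm38.p6). Only bases that precede every annotated start are shown, on the strand of the gene: Pdk3 chrX:93832202-93832400 (minus strand), Pdk4 chr6:5496310-5496528 (minus strand), Pdp2 chr8:104591222-104591450 (plus strand). Capitals mark exact matches, on either strand, to CCAAT (the CCAAT box, read as ATTGG on the other strand), to CCACG (the second part of the endoplasmic reticulum stress response element, CGTGG on the other strand) and to ACGTG (the core of hypoxia and bZIP elements), which overlaps CCACG where the letters run CCACGTG.

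Pdk3: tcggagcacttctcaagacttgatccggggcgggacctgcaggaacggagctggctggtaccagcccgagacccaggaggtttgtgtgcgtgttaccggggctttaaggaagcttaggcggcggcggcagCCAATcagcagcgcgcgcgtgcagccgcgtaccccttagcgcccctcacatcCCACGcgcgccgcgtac
Pdk4: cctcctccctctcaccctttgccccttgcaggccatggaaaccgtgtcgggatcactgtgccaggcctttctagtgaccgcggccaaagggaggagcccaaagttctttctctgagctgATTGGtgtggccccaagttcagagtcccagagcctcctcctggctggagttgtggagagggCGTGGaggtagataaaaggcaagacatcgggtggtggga
Pdp2: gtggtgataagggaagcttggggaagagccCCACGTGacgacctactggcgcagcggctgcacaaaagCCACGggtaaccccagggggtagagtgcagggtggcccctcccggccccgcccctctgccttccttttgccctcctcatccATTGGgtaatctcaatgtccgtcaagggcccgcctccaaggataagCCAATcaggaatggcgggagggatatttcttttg

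In these stretches Pdk3 held 1 CCAAT and 1 CCACG, Pdk4 held 1 of each on the opposite strand, and Pdp2 held 2 CCACG and 2 CCAAT. Each RefSeq window ran from 250 bases before to 50 bases after the start, and 5 of the 6 members matched an entry by symbol, the exception being Pdp1. The full Pdk3 window also held an ACGTG, 53 to 49 bases before the start, and a further CCACG after the start. Both reach past the stretch shown and are not marked there. Across the 32851 windows of the table, 37.4% held CCAAT, 32.8% held CCACG and 19.6% held ACGTG, so each is frequent. The full endoplasmic reticulum stress response element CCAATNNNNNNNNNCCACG, found in 0.119% of windows, and the unfolded protein response element TGACGTGG, found in 0.676%, were not among the letters of any member's window. The same held for AGGTCANAGGTCA (a nuclear receptor direct repeat, 0.0396%), TCAAGGTCA (the estrogen-related receptor element, 0.423%) and TGTTTAC (the forkhead element, 3.65%). A match is a run of letters, and binding was not measured.

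The members covered a wide range of levels in every library. Per length, in RPKM (CPM divided by the gene length in kilobases), Pdk2, the kinase found in most tissues, was the most abundant at 303 ± 2.37 in AAV-XBP1S, 401 ± 5.6 in AAV-ATF6N and 391 ± 87 in AAV-GFP (SD, n = 2 each). Pdk4, the kinase that fasting induces in heart and skeletal muscle, followed at 30.9 ± 9.26 RPKM in AAV-XBP1S, 100 ± 0.72 RPKM in AAV-ATF6N and 67.5 ± 29.5 RPKM in AAV-GFP. Pdk1 averaged 26.9 ± 11.2 RPKM in AAV-XBP1S, within the spread of Pdk4 there, 42.3 ± 1.94 RPKM in AAV-ATF6N and 28.1 ± 15.6 RPKM in AAV-GFP. Pdp1 averaged 18.6 ± 7.37 RPKM in AAV-XBP1S, 22.4 ± 1.05 RPKM in AAV-ATF6N and 14.0 ± 7.06 RPKM in AAV-GFP, above Pdk3 at 11.6 ± 1.78 RPKM in AAV-XBP1S and 17.6 ± 1.04 RPKM in AAV-ATF6N, and in AAV-XBP1S this pair did not differ beyond its spread. Pdp2 was the lowest in AAV-XBP1S and AAV-ATF6N at 2.22 ± 0.116 and 2.49 ± 0.276 RPKM. In AAV-GFP the order of the lowest pair was turned round, with Pdk3 at 3.82 ± 0.226 RPKM and Pdp2 at 4.39 ± 1.25 RPKM, and there these 2 neighbours did not differ beyond their spread.

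**Figure D1:**
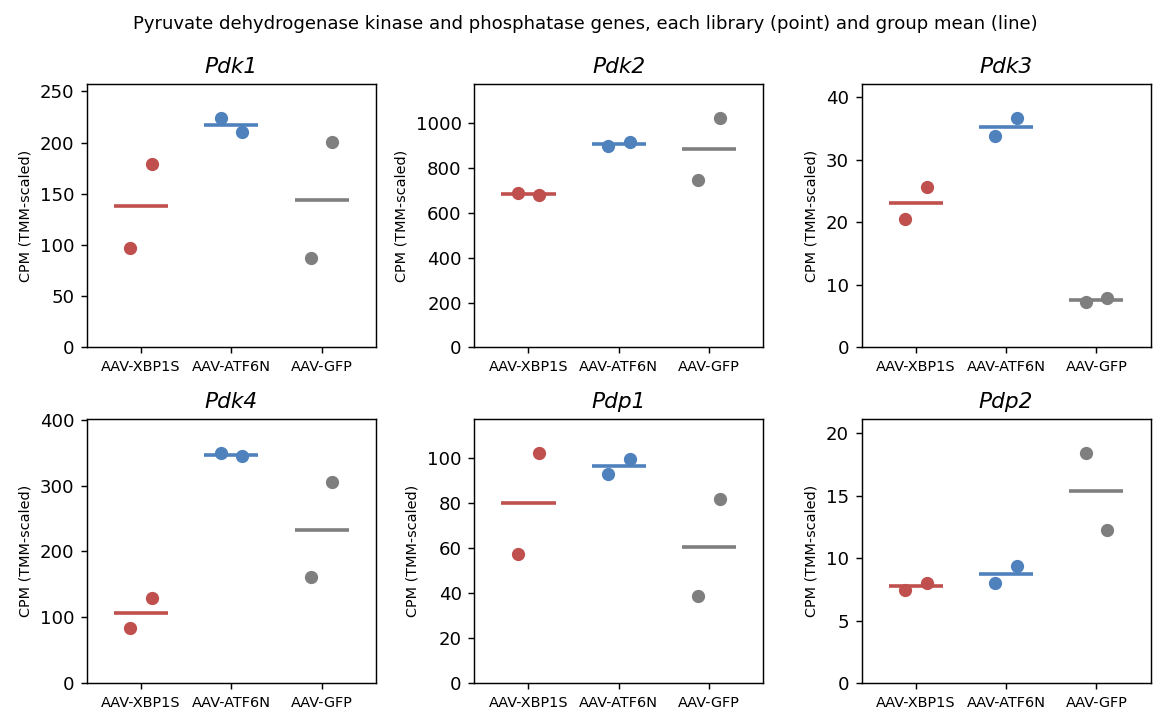
Level of each of the 6 genes in every library, in CPM, with AAV-XBP1S, AAV-ATF6N and AAV-GFP from left to right, points for single libraries and lines for group means. Pdk3 points do not overlap between groups, at 20.6 and 25.7 in AAV-XBP1S, 33.8 and 36.7 in AAV-ATF6N and 7.32 and 7.95 in AAV-GFP.

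Pdk3, a kinase known for high activity and for weak inhibition by pyruvate, lies on the minus strand of chrX:93764616-93832095 (mm10), with 12 exons. It had 20.6 and 25.7 CPM in the AAV-XBP1S libraries, 33.8 and 36.7 CPM in the AAV-ATF6N libraries and 7.32 and 7.95 CPM in the AAV-GFP libraries, from counts between 567 and 2743 per library. Both treated groups lay wholly above AAV-GFP, and AAV-ATF6N lay wholly above AAV-XBP1S. Pdk3 rose in AAV-ATF6N cardiomyocytes, with a log2 fold change of 2.21 (SE 0.22, 95% interval 1.68 to 2.74) and an adjusted p of 0.0223 in edgeR's test. In AAV-XBP1S cardiomyocytes the log2 fold change was 1.60 (SE 0.22, 95% interval 1.08 to 2.12) with an adjusted p of 0.0513 in edgeR's test, which did not pass. Between AAV-ATF6N and AAV-XBP1S it was 0.61 (95% interval 0.10 to 1.11), with an adjusted p of 0.289 in edgeR's test.

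In the authors' deposited table, Pdk3 stood at 2.21 on the log2 scale for AAV-ATF6N (adjusted p = 1.19e-09) and at 1.59 for AAV-XBP1S (adjusted p = 0.00344). The call in AAV-ATF6N was lost when either AAV-ATF6N library was left out, with adjusted p values of 0.163 and 0.197 in edgeR's test, and when either AAV-XBP1S library was left out, with 0.0754 and 0.0773. Without the second AAV-GFP library, the AAV-XBP1S difference was 1.70 with an adjusted p of 0.0398 in edgeR's test. Over 11 alternative settings the log2 fold change stayed between 2.15 and 2.34 for AAV-ATF6N and between 1.44 and 1.80 for AAV-XBP1S. The plot of settings shows all of them except the replicate block.

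Of the 487 tested genes on the X chromosome, the median log2 fold change was 0.12 in AAV-XBP1S and 0.09 in AAV-ATF6N, beside -0.01 and -0.02 over all genes. In AAV-XBP1S 0 of them passed edgeR's test, beside 0.315% of all genes. There 50 of the 487 had an unadjusted p under 0.05, beside 11.6% of all genes. DESeq2 called 12 of them, and 484 genes in the whole count table. In AAV-ATF6N 5 of the 487 were called higher and 2 lower by edgeR's test, beside 0.514% of all genes called in either direction. A log2 fold change at least that of Pdk3 was found for 27 X-linked genes in AAV-XBP1S and 20 in AAV-ATF6N, Pdk3 included. Over all tested genes, 4.32% in AAV-XBP1S and 2.72% in AAV-ATF6N reached that of Pdk3. The nearest tested genes on the 2 sides, Pola1 and Zfx, had log2 fold changes of 0.74 and 0.40 in AAV-ATF6N. Their adjusted p values there were 0.294 and 0.44 in edgeR's test. In AAV-XBP1S the values were 0.36 and 0.41, with adjusted p values of 0.594 and 0.577 in edgeR's test. For both genes the libraries of either treated group lay wholly above AAV-GFP. Libraries did not overlap, in either direction, for 35.9% of all genes in AAV-XBP1S and 54.5% in AAV-ATF6N. Pdk3 was higher in AAV-XBP1S libraries, where Xist was high and Y-linked RNA near 0, and in AAV-ATF6N libraries, where Xist was near 0 and Y-linked RNA high. Summed endothelial markers were at 893 and 1245 CPM in AAV-XBP1S, above AAV-GFP as Pdk3 was, and at 534 and 489 CPM in AAV-ATF6N, below the 543 and 800 CPM of AAV-GFP. The summed fibroblast markers were higher in both treated groups than in AAV-GFP, with 6 of 6 genes above 0 on the log2 scale in AAV-XBP1S and 4 of 6 in AAV-ATF6N, and so were macrophage and leukocyte markers, also with 6 of 6 and 4 of 6, and smooth muscle and pericyte markers, with 6 of 6 and 3 of 6. None of these genes passed the test, and the part of these cell types in the Pdk3 values was not tested.

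**Figure D2:**
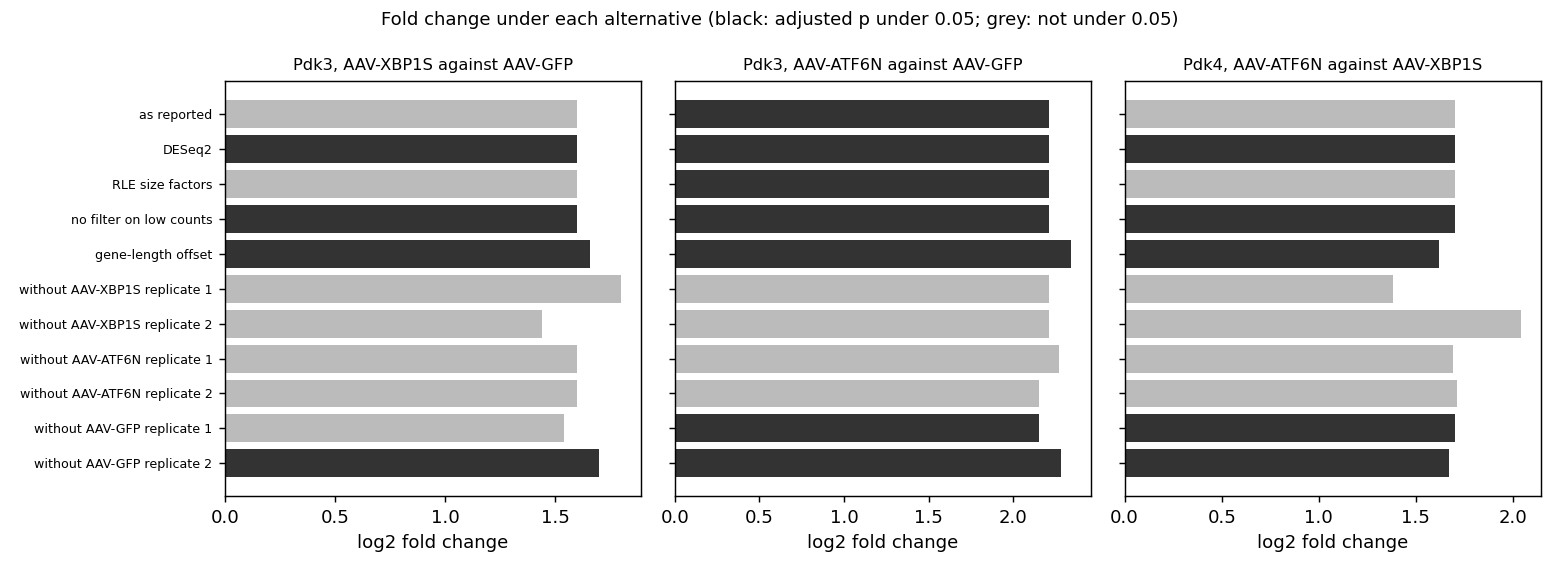
Log2 fold change (horizontal axis) as reported and under each alternative method except the replicate block, or left-out library (vertical axis), for Pdk3 in AAV-XBP1S and in AAV-ATF6N relative to AAV-GFP and for Pdk4 in AAV-ATF6N relative to AAV-XBP1S, with black bars where the adjusted p was under 0.05. The Pdk3 bars for AAV-ATF6N sit between 2.15 and 2.34, while the colour changes with single left-out libraries.

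Pdk4, at chr6:5483351-5496278 on the minus strand (mm10), is a target of PPAR alpha, of glucocorticoids and of FOXO factors. It had 84.2 and 129 CPM with AAV-XBP1S, 349 and 345 CPM with AAV-ATF6N, and 161 and 305 CPM with AAV-GFP. The AAV-XBP1S libraries lay below both AAV-GFP libraries and the AAV-ATF6N libraries above them, and the AAV-GFP libraries themselves differed 1.89-fold. Against AAV-GFP, the log2 fold change was -1.13 (SE 0.35) in AAV-XBP1S with an adjusted p of 0.311 and 0.57 (SE 0.35) in AAV-ATF6N with an adjusted p of 0.434, both from edgeR's test. The direct difference between AAV-ATF6N and AAV-XBP1S was 1.70 (SE 0.36, 95% interval 0.85 to 2.55), or 3.25-fold, with an unadjusted p of 0.00229 and an adjusted p of 0.107 in edgeR's test. With DESeq2 the adjusted p for that difference was 0.000353, and without either AAV-GFP library it was 0.0188 and 0.0234 in edgeR's test. Without the second AAV-GFP library the difference between AAV-ATF6N and AAV-GFP was 1.12 with an adjusted p of 0.0463 in edgeR's test, and without the first it was 0.18. Without 1 of the 2 AAV-XBP1S libraries the direct difference was 1.38 or 2.04, and it did not pass without any 1 library of the treated groups. Summed cardiomyocyte markers in CPM were highest in AAV-ATF6N and lowest in AAV-XBP1S, but per length they were 50704 and 40526 RPKM in AAV-XBP1S, 49071 and 49408 RPKM in AAV-ATF6N and 73728 and 49932 RPKM in AAV-GFP. Of the 8 cardiomyocyte markers, 4 were above 0 and 4 below 0 on the log2 scale in AAV-ATF6N, with Myh6, the main myosin heavy chain of the adult mouse ventricle, at 1.04 and Myl2, the ventricular myosin light chain, at -0.94, and none passed the test. Meanwhile 7 of 7 endothelial markers were above 0 on the log2 scale in AAV-XBP1S and 6 of 7 below 0 in AAV-ATF6N, with none past the test. Their part in the Pdk4 values was not tested.

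Pdk2, at chr11:95026258-95041371 (mm10), had 690 and 682 CPM with AAV-XBP1S, 899 and 917 CPM with AAV-ATF6N, and 745 and 1023 CPM with AAV-GFP. The AAV-XBP1S libraries lay below both other groups, while AAV-ATF6N lay inside the AAV-GFP range. Its log2 fold change was -0.37 (95% interval -0.87 to 0.14) in AAV-XBP1S and 0.04 (95% interval -0.47 to 0.54) in AAV-ATF6N, and 0.41 (95% interval -0.10 to 0.91) for AAV-ATF6N over AAV-XBP1S. Pdk1, a kinase that hypoxia induces, at chr2:71873272-71903858 (mm10), had 97.2 and 179 CPM with AAV-XBP1S, 224 and 210 CPM with AAV-ATF6N, and 87.6 and 201 CPM with AAV-GFP. Its AAV-GFP libraries differed 2.29-fold and its AAV-XBP1S libraries 1.84-fold, which left 95% intervals of -1.11 to 0.98 for AAV-XBP1S and -0.46 to 1.64 for AAV-ATF6N, around log2 fold changes of -0.07 and 0.59.

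Pdp2, a phosphatase known for its response to insulin, at chr8:104591468-104596849 (mm10), had 7.47 and 8.04 CPM with AAV-XBP1S, 8.03 and 9.40 CPM with AAV-ATF6N, and 18.4 and 12.3 CPM with AAV-GFP. Both treated groups lay wholly below AAV-GFP and overlapped each other. The log2 fold change was -0.99 (SE 0.27) in AAV-XBP1S with an adjusted p of 0.257 and -0.82 (SE 0.27) in AAV-ATF6N with an adjusted p of 0.312, in edgeR's test. Without the second AAV-GFP library the AAV-ATF6N value was -1.07 with an adjusted p of 0.0338 in edgeR's test, and without the first, the library that stood apart, it was -0.49. Pdp1, the calcium-sensitive phosphatase of muscle, at chr4:11958185-11966450 (mm10), had 57.5 and 102 CPM with AAV-XBP1S, 93.0 and 99.5 CPM with AAV-ATF6N, and 38.8 and 81.7 CPM with AAV-GFP. The AAV-ATF6N libraries lay above both AAV-GFP libraries, with a log2 fold change of 0.68 and an adjusted p of 0.434 in edgeR's test, while the AAV-XBP1S libraries overlapped them, at 0.41 (95% interval -0.57 to 1.38).

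**Figure D3:**
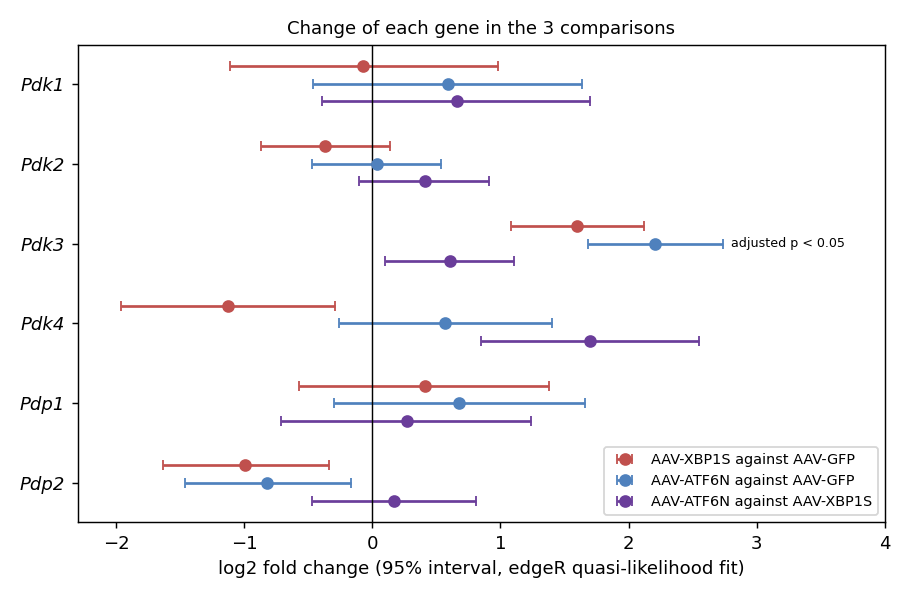
Log2 fold change of each gene with its 95% interval for AAV-XBP1S and for AAV-ATF6N relative to the control virus, and for the direct comparison of AAV-ATF6N over AAV-XBP1S. The Pdk3 intervals of 1.08 to 2.12 and 1.68 to 2.74 lie above 0, and those of Pdk1 cross it.

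In AAV-XBP1S against AAV-GFP, 0 of the 6 members passed edgeR's test, against 0.315% of all genes, with 3 of 6 at an unadjusted p under 0.05, beside 11.6% of all genes, and 1, Pdk3, called by DESeq2. In AAV-ATF6N against AAV-GFP, 1 of 6 passed, against 0.514% of all genes, with 2 of 6 at an unadjusted p under 0.05, beside 13.5% of all genes, and DESeq2 called the same gene. Between AAV-ATF6N and AAV-XBP1S, 0 of 6 passed edgeR's test, against 0.226% of all genes, with 2 of 6 at an unadjusted p under 0.05, beside 13.2% of all genes, and 1, Pdk4, called by DESeq2. The libraries did not overlap for 4, 5 and 4 members in these comparisons, against 35.9%, 54.5% and 56.9% of all genes. The median log2 fold change of the members was -0.22, 0.58 and 0.51, beside -0.01, -0.02 and -0.01 over all genes.

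Per length, the kinases summed to 358 and 386 RPKM in AAV-XBP1S, 559 and 565 RPKM in AAV-ATF6N, and 397 and 584 RPKM in AAV-GFP. Pdk4 made up 6.81% and 9.7% of that sum in AAV-XBP1S, 18.1% and 17.7% in AAV-ATF6N, and 11.8% and 15.1% in AAV-GFP, with no overlap between groups. Pdk3 made up 2.88% and 3.32% in AAV-XBP1S, 3.02% and 3.25% in AAV-ATF6N, and 0.922% and 0.681% in AAV-GFP. Thus Pdk2 remained the main kinase transcript in every library, at 71.1% to 85.0% of the sum. The ratio of summed kinase to summed phosphatase level was 23.1 and 14.8 in AAV-XBP1S, 23.3 and 21.9 in AAV-ATF6N, and 27.7 and 25.9 in AAV-GFP, so both treated groups lay below AAV-GFP. These shares are descriptions of transcript levels, and protein and enzyme activity were not measured.

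**Figure D4:**
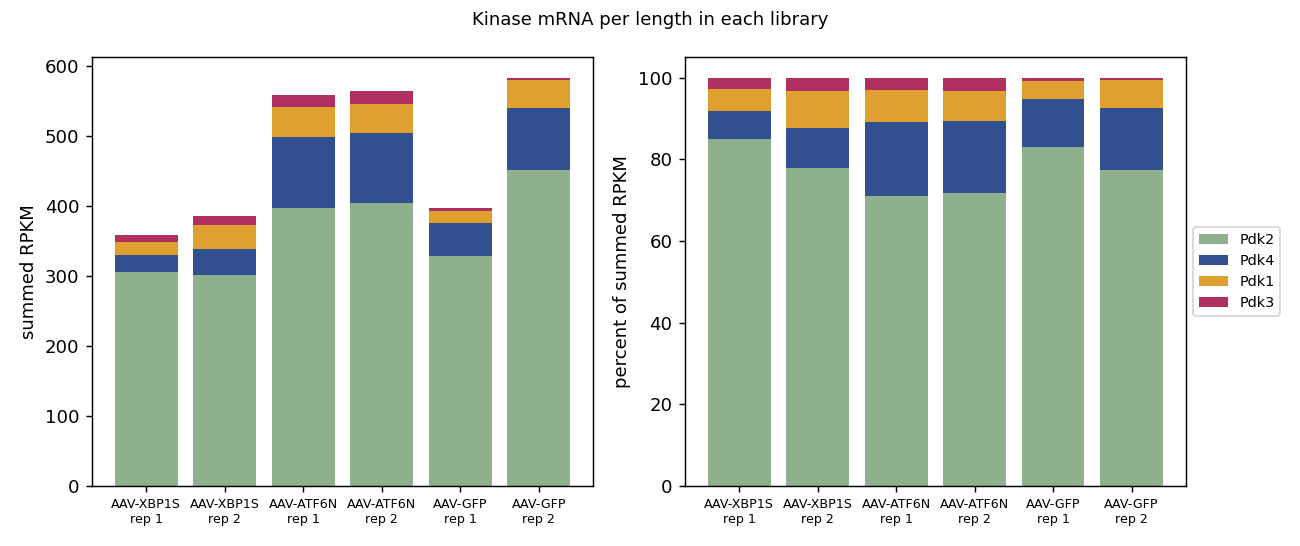
Kinase transcript level per length in each library, as summed RPKM (left) and as percent of that sum (right), stacked by gene. Pdk4 takes 18.1% and 17.7% in AAV-ATF6N, against 6.81% and 9.7% in AAV-XBP1S.

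A list of 6 genes held the pyruvate dehydrogenase complex and Pdpr, a regulatory subunit of the phosphatase, and none passed. Their median log2 fold change was -0.01 in AAV-XBP1S and 0.35 in AAV-ATF6N. In AAV-ATF6N 5 of 6 had libraries wholly above AAV-GFP, beside 27.9% of all genes. Dlat, the E2 core enzyme, had a log2 difference of 0.58 between AAV-ATF6N and AAV-XBP1S with an adjusted p of 0.361 in edgeR's test. None of the 13 genes of pyruvate and lactate handling passed. Among them, Slc16a3, a monocarboxylate exporter, stood at 1.49 on the log2 scale in AAV-XBP1S (adjusted p = 0.205 in edgeR's test). Its level was low, with means of 6.66 CPM there, 2.46 CPM for AAV-ATF6N and 2.36 CPM for AAV-GFP. Ldhd, a D-lactate dehydrogenase, stood at -0.88 in AAV-XBP1S (adjusted p = 0.194 in edgeR's test). Slc16a1, of the same list, was more abundant, averaging 613 CPM for AAV-ATF6N, 355 for AAV-XBP1S and 315 for AAV-GFP. Its log2 fold change was 0.96 in AAV-ATF6N (adjusted p = 0.314 in edgeR's test) and 0.17 in AAV-XBP1S. The 9 genes that make and attach lipoate, the cofactor of the E2 enzyme, had medians of -0.35 in AAV-XBP1S and -0.37 in AAV-ATF6N with none called, and the 7 genes of the sister dehydrogenase complexes had none called. Ogdh and Dlst, subunits of the oxoglutarate dehydrogenase complex, stood 0.88 and 0.42 higher on the log2 scale in AAV-ATF6N than in AAV-XBP1S, with adjusted p values of 0.436 and 0.382 in edgeR's test.

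Among 14 transcriptional regulators of Pdk genes, 1 passed: Klf15, a glucocorticoid-induced factor of heart metabolism, fell in AAV-XBP1S. It had 57.1 and 52.1 CPM with AAV-XBP1S, 129 and 136 CPM with AAV-ATF6N, and 162 and 191 CPM with AAV-GFP, with a log2 fold change of -1.70 and an adjusted p of 0.0322 in edgeR's test. That call was lost when either library of AAV-XBP1S or of AAV-ATF6N was left out, with adjusted p values of 0.147 to 0.434. None of 24 other PPAR alpha targets passed in any comparison, although 21 of 24 in AAV-XBP1S and 19 of 24 in AAV-ATF6N had log2 fold changes below 0. Among them, Slc27a1, a fatty acid transporter, and Ucp3, a mitochondrial uncoupling protein, had log2 fold changes of -1.10 and -1.31 in AAV-XBP1S, with adjusted p values of 0.133 and 0.135 in edgeR's test. Of 15 other HIF-1 targets, Pfkfb3, which makes the activator of phosphofructokinase, fell by 2.24 on the log2 scale in AAV-ATF6N with an adjusted p of 0.0462 in edgeR's test. It had 5.32 and 7.57 CPM with AAV-XBP1S, 4.61 and 4.76 CPM with AAV-ATF6N, and 17.5 and 26.9 CPM with AAV-GFP, and the call was lost without any 1 of the 4 libraries of the treated groups, with adjusted p values of 0.12 to 0.444. Of 14 other glucocorticoid and FOXO targets, Zbtb16, a zinc finger repressor, fell by 2.06 on the log2 scale in AAV-XBP1S with an adjusted p of 0.0235 in edgeR's test, with 13.0 and 13.9 CPM there, 73.0 and 58.8 CPM in AAV-ATF6N and 61.3 and 51.0 CPM in AAV-GFP. The call was lost without any 1 of the 4 libraries of the treated groups, with adjusted p values of 0.0921 to 0.356 in edgeR's test.

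**Figure D5:**
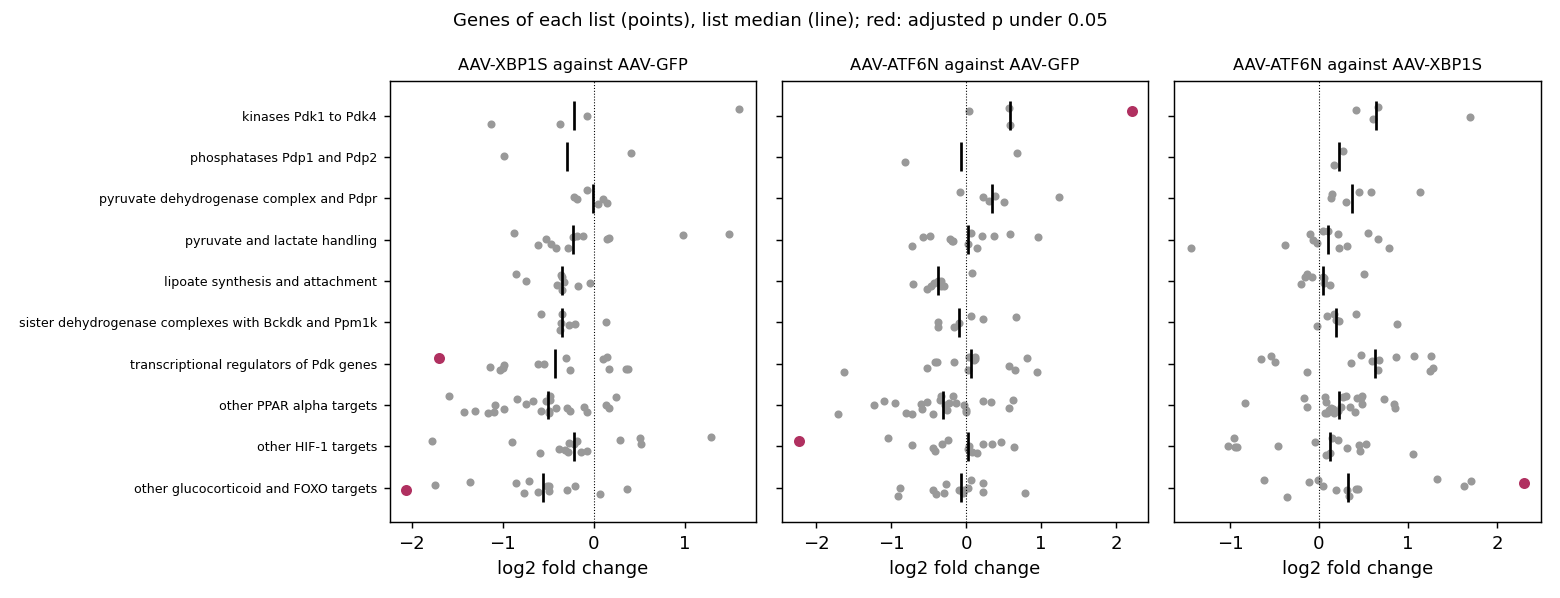
Log2 fold change of every gene (points) and the median (line) of each list in the 3 comparisons, with red points where the adjusted p was under 0.05. The PPAR alpha targets have medians of -0.51 in AAV-XBP1S and -0.31 in AAV-ATF6N.

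Over the 6 libraries, 8961 genes with a mean of at least 5 CPM were ranked by Pearson's r of log2 CPM with each member, as a description in which all genes share the libraries and their depth. Dapp1 (r = 0.9958), Pdia2 (r = 0.9926) and Sardh (r = 0.9874) were most like Pdk3. Pdia2, a protein disulfide isomerase, had 3.01 and 3.15 CPM with AAV-XBP1S, 34.2 and 33.0 CPM with AAV-ATF6N and no count with AAV-GFP, where 3 counts would be 0.0305 and 0.0421 CPM. Ehbp1l1 (r = 0.9971), Large (r = 0.9968) and Pank4 (r = 0.9947) were most like Pdk4, and 147 genes exceeded an r of 0.95 with it. For Pdk1 and Pdp1 the nearest genes were Xpnpep3 (r = 0.9989) and Zfp260 (r = 0.9990), among 710 and 593 genes over 0.95, and for Pdk2 and Pdp2 they were Hcn2 (r = 0.9977) and Klhdc8b (r = 0.9925), among 88 and 44. Within the members, Pdk1 and Pdp1 went together most closely, with r = 0.92, and Pdk2 with Pdk4 had r = 0.91. Both values also cover gaps between replicates. For Pdk1 and Pdp1 the first library was the lower one in AAV-GFP, by 2.29-fold for Pdk1 and 2.11-fold for Pdp1. In AAV-XBP1S it was lower by 1.84-fold and 1.78-fold. For Pdk2 and Pdk4 the first AAV-GFP library was also the lower one, by 1.37-fold and 1.89-fold. In AAV-XBP1S the first library was lower by 1.54-fold for Pdk4, while Pdk2 differed only 1.01-fold.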

How the data were processed

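Polyadenylated RNA of sorted cardiomyocytes was sequenced in 6 libraries. Per the labels, the kits were PureLink RNA Micro Scale, SMART-Seq v4 and Nextera XT, which do not mark strand. The authors' raw counts per gene came with exon positions and gene lengths, and STAR, featureCounts, DESeq, DESeq2 and build mm10 are named in the submitters' processing notes (versions, annotation and strand setting: not given in the sources used here). Comparison tables deposited by the authors hold a mean normalized count (a signal), log2 fold changes with standard errors, a test statistic (a score) and p-values. From the counts, R 4.3.3 and edgeR 4.0.16 (TMM, filterByExpr with a minimum count of 10, quasi-likelihood test, 3 groups in 1 fit) gave tests over 14587 genes with Benjamini-Hochberg adjustment and a threshold of 0.05; levels are CPM on TMM-scaled totals and RPKM on the authors' gene lengths, and log2 CPM used a prior count of 2. The test was tried on simulated data with a dispersion (spread between replicates) set below the 0.0921 estimated from the libraries. That trial therefore does not measure how the test performs at the real spread. Alternatives were DESeq2 1.42.0, other size factors, no filter, a gene-length offset, a replicate block and leaving out each library. Named genes were the members, the delivered factors, in each list the genes past the threshold or else up to 3 of smallest p, and the 3 genes most correlated with each member. The members and lists were chosen with earlier results of these data known. Intervals from the fit cover the spread between libraries. No exon of another gene in the count table or in GENCODE M21 overlapped a member's exons. The result of 1 gene that the rule names is not reported here.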

Additional observations from a re-analysis of the deposited data

Results flagged for a closer look

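Pdk4 lay on opposite sides of AAV-GFP in the treated groups, although neither difference from AAV-GFP passed edgeR's quasi-likelihood test (adjusted p = 0.311 for AAV-XBP1S and 0.434 for AAV-ATF6N): both AAV-XBP1S libraries, at 84.2 and 129 CPM, lay below both AAV-GFP libraries, at 161 and 305 CPM, and both AAV-ATF6N libraries, at 349 and 345 CPM, lay above them. The difference between AAV-ATF6N and AAV-XBP1S was 1.70 on the log2 scale, and its adjusted p of 0.107 in edgeR's quasi-likelihood test did not pass the threshold. Without the first AAV-GFP library the log2 difference of AAV-ATF6N from AAV-GFP was 0.18.

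Zbtb16 differed between the treated groups by 2.30 on the log2 scale, with an adjusted p of 0.0271 in edgeR's quasi-likelihood test. It had 73.0 and 58.8 CPM in AAV-ATF6N and 13.0 and 13.9 CPM in AAV-XBP1S, beside 61.3 and 51.0 CPM in AAV-GFP. That call was lost when either library of AAV-ATF6N or of AAV-XBP1S was left out, with adjusted p values of 0.187 to 0.378.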

How the results depend on the processing

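With 2 libraries per group, counts of calls moved with the method and with single libraries. In AAV-XBP1S against AAV-GFP, 46 genes passed in edgeR's test and 484 with DESeq2, 233 without the filter and 289 with the gene-length offset, and each of these called 1 member in place of 0. In AAV-ATF6N against AAV-GFP, 75 genes passed, against 573, 348 and 224, with 1 member called each time. Between AAV-ATF6N and AAV-XBP1S, 33 passed, against 803, 458 and 606, with 1 member in place of 0. Leaving out 1 library gave 2 to 322, 6 to 3055 and 1 to 717 genes, and 0 to 1, 0 to 3 and 0 to 1 members; the 3055 came without the second AAV-GFP library. Leaving out 1 library turned the sign of 4 values that had not passed: Pdk1 in AAV-XBP1S ranged from -0.57 to 0.69 (0.35 without the first AAV-XBP1S library), Pdk2 in AAV-ATF6N from -0.17 to 0.30, Pdp1 in AAV-XBP1S from -0.06 to 1.08 (-0.04 without the first AAV-GFP library), and Pdp1 in AAV-ATF6N against AAV-XBP1S from -0.13 to 0.74. Of 198 values of the members under alternatives, 175 kept direction and side of the threshold. The cause of these shifts was not tested.

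Replicate numbers are shared between the groups. Same-numbered libraries deviated together with a correlation of 0.379 for AAV-XBP1S and AAV-GFP. For AAV-ATF6N it was -0.048 with AAV-XBP1S and -0.0402 with AAV-GFP. The numbers were not taken to pair the libraries, although the first value is a partly shared deviation. With the replicate number as a block, 165, 237 and 356 genes passed edgeR's test, with 1 member in each comparison. The order is AAV-XBP1S, AAV-ATF6N and AAV-ATF6N over AAV-XBP1S. Pdk3 had adjusted p values of 0.0138 in AAV-XBP1S and 0.00219 in AAV-ATF6N in that test, and Pdk4 had 0.0154 in the direct comparison. Whether Pdk3 passed in AAV-XBP1S thus depended on the use of the replicate number.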
